A study of Saccharomyces cerevisiae with 74 samples.

Results

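Yeast mRNAs were measured after heat shock with cycloheximide (CHX) and after heat shock alone, to find which transcripts the drug keeps and which it does not. The libraries were picked by their labels, with no use of measured values. Wild-type cells held at 42 °C with CHX for 16 min gave 2 libraries (J and O), and wild-type cells held at 42 °C without it for the same time gave 3 (E, F and I). These are 5 of the 18 RNA-seq libraries and 5 of all 74 samples in the series. Unstressed wild-type cells at 30 °C, harvested directly from culture, gave 3 control libraries (A, B and H). All were haploid cells of the BY4741 background, which carries deletions in HIS3, LEU2, MET15 and URA3, and they grew in glucose medium. Heat-shocked cells were collected on a filter and cultured again in new medium, which the control cells were not, so transfer and heat cannot be told apart in any comparison with the control. Both heat-shocked groups were transferred. Cells given CHX without heat are not among the RNA-seq libraries, so the changes below are those of CHX in heated cells. Cells at 42 °C that lack XRN1 or SKI2 gave 2 libraries each.

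CHX binds the ribosome and blocks elongation, so ribosomes stop on the mRNA where they stand. In yeast, heat shock shuts down translation initiation, and mRNAs for ribosomal proteins and ribosome assembly are lost quickly while mRNAs for chaperones accumulate. Removal of the cap and digestion by the 5′ to 3′ exonuclease Xrn1 is the main path of cytoplasmic mRNA decay, and the exosome, with the Ski2 helicase, digests from the 3′ end.

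Poly(A) RNA was sequenced after RNA of the fission yeast Schizosaccharomyces pombe had been added to each sample as a fixed share of the RNA. Reads on S. pombe numbered 568891 and 532037 in the CHX libraries, 767151 to 843633 in the 42 °C libraries and 604215 to 990246 in the controls, beside 27600816 to 45693710 reads on yeast mRNAs. Counts were scaled to the S. pombe reads of each library and are called scaled counts below. Since the spike was set against RNA and not against cells, less mRNA per cell and a change in the rest of the RNA cannot be told apart. Replicates of the heated groups differed by far more than sampling noise, with chi-square values per degree of freedom of 39.2 to 251, and libraries E and F lay closer to each other than either did to I. The file headers carry an earlier date for A, B, E and F and a later one for H, I, J and O, so that both CHX libraries belong to the later date. Controls A and B gave a chi-square per degree of freedom of 2.46, well under the 61.4 and 85 of the other control pairs. LEU2 and URA3 had at most 1 read in each of these 8 libraries, as the strain background requires, while HIS3, deleted only in part in this strain, had reads in all.

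Total mRNA was higher with CHX than after heat shock alone. Summed mRNA reads per S. pombe read were 104 and 109% of the control mean in J and O, against 76.0, 70.7 and 82.8% in E, F and I. The means were 107 ± 4.07% with CHX (SD, n = 2), 76.5 ± 6.08% at 42 °C alone (SD, n = 3) and 100 ± 6.39% in controls (SD, n = 3). The groups with and without CHX did not overlap, and the exact two-sided permutation test gave p = 0.1, the smallest that 2 against 3 libraries allow. For the 5000 mRNAs with the highest mean, the median log2 change against the control was -0.08 ± 0.14 with CHX and -0.90 ± 0.07 at 42 °C alone (SD, n = 2 and 3), again without overlap and with an exact p of 0.1.

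**Figure D1:**
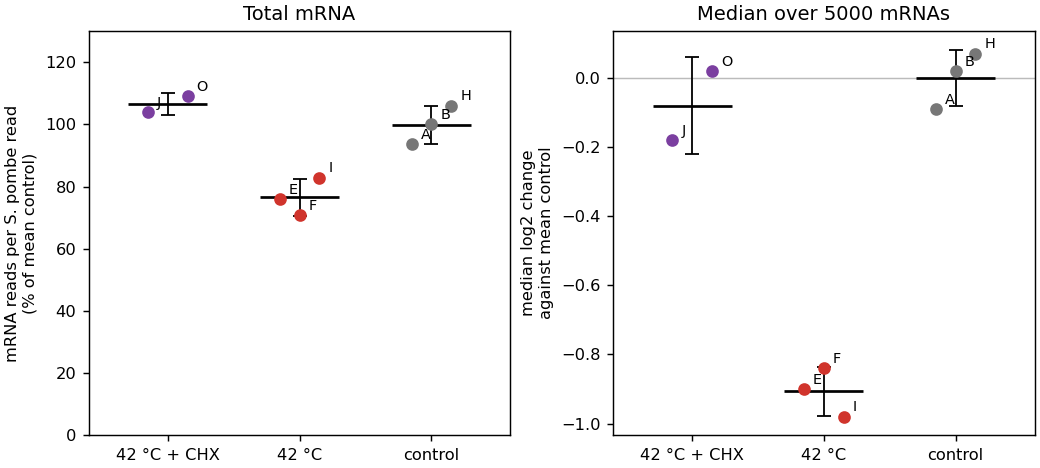
Total mRNA per S. pombe read (left, % of the control mean) and the median log2 change over 5000 mRNAs (right) for each library of the 42 °C with CHX, 42 °C and control groups. Points are libraries, the wide bar is the mean and the whiskers are the SD; J and O lie above E, F and I in both panels, J lies below the controls at right (-0.18) and O above them at left (109%).

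Across single mRNAs the same held for most of the transcriptome. In a fit of all 18 libraries with edgeR's quasi-likelihood test, 4983 of 6320 mRNAs tested were higher with CHX than at 42 °C alone (78.8%) and 182 were lower (2.88%), with a call made where the adjusted p fell under 0.05. Of those higher, 3212 were at least 2-fold, 692 at least 4-fold and 111 at least 8-fold higher, while 33 of those lower were at least 2-fold lower. The median log2 fold change was 1.02, with quartiles of 0.51 and 1.52. This balance rests on the S. pombe reads. With TMM factors, which assume that most mRNAs keep their level, log2 values fell by 0.98 at the median, and 2130 mRNAs (33.8%) were called higher and 2049 (32.5%) lower. All 182 mRNAs called lower remained so with TMM, 2130 of the 4983 remained higher, and 843 of the 4983 became lower. A value under about 0.98 therefore stands below the typical mRNA, and the sign of a positive value in that range depends on the spike-in. Among libraries of the later header date alone (I against J and O), 4555 mRNAs were higher and 114 lower.

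Most of the mRNAs that heat shock depleted were higher with CHX. At 42 °C alone against the control, 2640 of the 6320 mRNAs were called with a log2 fold change of -1 or lower (41.8%). Their median level was 62.1% of the control mean with CHX and 29% at 42 °C alone. CHX libraries were higher than 42 °C libraries for 2411 of these 2640 (91.3%), lower for 15 and not called for 214. With TMM scaling of the CHX contrast and the same 2640 mRNAs, 1326 were higher and 436 lower, with a median of 0.30. For mRNAs that heat changed by less, the count was 2167 of 3000 (72.2%), and for the 680 that heat raised at least 2-fold (10.8% of all) it was 405 (59.6%). Since both contrasts contain the 42 °C libraries, the counts describe and do not test a relation.

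The relation was therefore also described with no library in common. Classes were cut by E and F over A and B, and CHX values were taken as J or O over I, with a pseudocount of 1. For the 502 mRNAs under -3 in the first ratio, the median log2 change with CHX was 1.53 in J and 1.98 in O, and 99.4 and 99.8% of them were above I. For the 3121 mRNAs between -1 and 1 the medians were 0.79 and 0.90. For the 142 mRNAs above 3 they were 0.24 and 0.13, with 60.6 and 58.5% of them above I. The medians fell from class to class in O, and in J at every step but that from the class of 1 to 2 (0.61) to that of 2 to 3 (0.63).

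**Figure D2:**
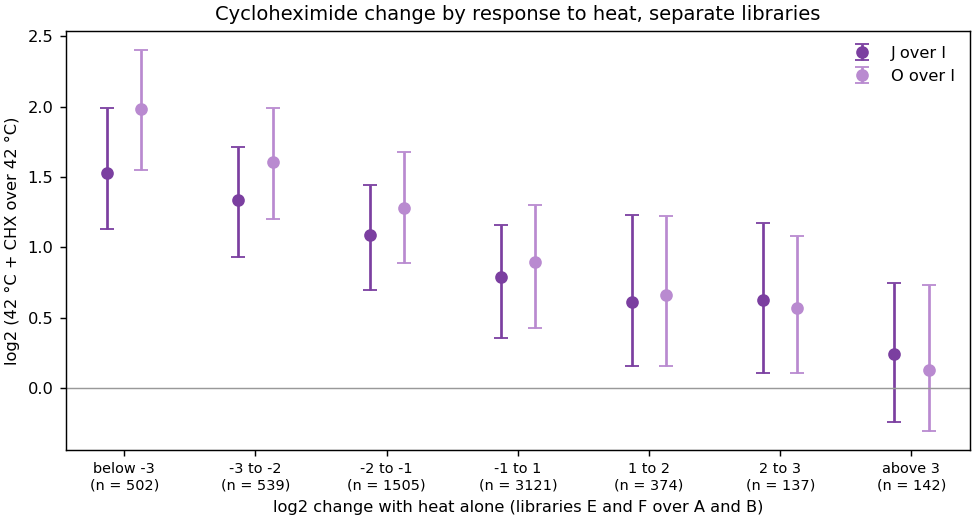
Log2 ratio of each CHX library to 42 °C library I (y axis) for mRNAs in classes of their log2 change with heat alone, taken from other libraries (x axis, number of mRNAs in brackets). Points are medians and bars span the quartiles, with J left of O; the medians go down from 1.53 and 1.98 in the most depleted class to 0.24 and 0.13 in the most raised class.

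The mRNAs that heat depleted the most stayed far from their control level with CHX. The classes were cut on the 42 °C and control libraries that also enter the levels below, so the values are a description. Those with a log2 change of -2 to -1 at 42 °C stood at a median of 78.1% of control with CHX against 37.3% at 42 °C alone (1550 mRNAs). Those of -3 to -2 stood at 50.6% with CHX against 18.8% (559 mRNAs). Those of -4 to -3 stood at 31% with CHX against 8.83% (449 mRNAs), and those below -4 at 18.2% with CHX against 5.71% (82 mRNAs). At least 50% of the control level was kept with CHX by 86.4, 51.5, 16 and 2.44% of these classes, in that order. Against the control, CHX libraries were still lower for 1700 of the 2640 heat-depleted mRNAs (64.4%), higher for 184 (6.97%) and not called for 756, where 32.1% of all mRNAs tested were lower and 39.4% higher.

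mRNAs of the cytosolic ribosome were all higher with CHX, yet stayed well under their control level. Ribosomal proteins of the large subunit were, in sum, at 25.3 and 34.5% of the control mean in J and O, against 8.64, 7.25 and 9.63% in E, F and I. Those of the small subunit were at 25.0 and 33.9% with CHX, against 8.56, 7.25 and 9.42% without. All 81 large-subunit and all 57 small-subunit mRNAs passed the test, where 78.8% of all mRNAs did, with median log2 fold changes of 1.74 and 1.72 beside 1.02 over all. With TMM scaling the medians were 0.75 and 0.73, and 69 and 50 were higher. RPL3, a protein of the large subunit at its catalytic core, had 51389 and 69092 scaled counts in J and O, against 11763, 10579 and 11754 in E, F and I, with controls at 157344 to 184591. Its log2 fold change was 2.41 ± 0.21 (SE, edgeR adjusted p = 1.2e-26). RPS31, which is made as a fusion to ubiquitin, had 47446 and 62543 scaled counts with CHX, against 10777, 9312 and 12134 at 42 °C alone (2.36 ± 0.21, adjusted p = 7e-26). These are increases of 5.3-fold for RPL3 and 5.12-fold for RPS31. RPL15B lay at the low end of the large subunit, with 2582 and 3099 scaled counts against 1805, 1770 and 2085 (0.59 ± 0.18, adjusted p = 0.0012), a value that was -0.39 and called lower with TMM scaling and that was not called against I alone (0.45, adjusted p = 0.12). Most ribosomal proteins come from a pair of near-identical genes, and reads that fit both copies were placed at random by the names in the file headers, so the split within a pair is uncertain. The same limit applies to other near-identical genes named below, among them SSA1 with SSA2 and HSP82 with HSC82.

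Ribosome assembly factors behaved in the same manner. All 62 tested factors of the small-subunit processome and 40S assembly and all 70 of 60S assembly were higher with CHX, beside 78.8% of all mRNAs. The medians were 1.99 and 1.81 (1.01 and 0.82 with TMM scaling). With TMM scaling 53 of each list were higher, and 1 of 60S assembly was lower. The summed level of the first list was 29.2 and 39.2% of control with CHX, against 10.2, 9.03 and 10.5% at 42 °C alone. LTV1, needed for export of the 40S precursor, had 3392 and 3928 scaled counts in J and O, against 317, 299 and 476 in E, F and I. At 10.1-fold above 42 °C alone (log2 fold change 3.33 ± 0.19, adjusted p = 3.8e-55) it reached 75.1% of the control mean, with control counts of 4348 to 5680. LTV1 with CHX was still called lower than the control (-0.41, edgeR adjusted p = 0.037). ALB1, a shuttling factor of the 60S precursor, was at the other end with 235 and 351 scaled counts against 252, 186 and 184, where the groups overlapped (0.50 ± 0.19, adjusted p = 0.014, and -0.50 with TMM scaling). RCL1, the lowest of the small-subunit list, had 1060 and 978 against 474, 364 and 979. Its value of 0.75 ± 0.18 was 0.06 against I alone and -0.22 with TMM scaling. ESF1, of the same list, was at 1.01, at 0.57 against I alone and at 0.01 with TMM scaling. RNA polymerase I and III mRNAs were higher for 22 of 23, and with TMM scaling 15 were higher and 1 lower. RPC53, a polymerase III subunit, reached 2094 and 2842 scaled counts against 326, 309 and 334 (2.93 ± 0.18, adjusted p = 4.2e-47). RPA135, the second largest subunit of polymerase I, had 2383 and 3172 with CHX against 1178, 989 and 1359, so that it kept far less of its 15733 to 19251 control counts.

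Other growth-related mRNAs were raised by CHX to differing degrees. All 18 cytosolic tRNA synthetases, 24 of 26 translation initiation factors and 57 of 66 amino acid biosynthesis genes were higher, beside 78.8% of all mRNAs, with medians of 1.24, 1.30 and 1.30 beside 1.02. With TMM scaling 8, 15 and 35 were higher and 1, 3 and 11 lower, with medians of 0.25, 0.32 and 0.31. ARG4, argininosuccinate lyase, had 12573 and 21330 scaled counts in J and O, against 2165, 2597 and 1867 in E, F and I (2.94 ± 0.20, adjusted p = 2.8e-40). In the same list ASN1, an asparagine synthetase, had 5555 and 7676 with CHX, below the 9171, 9633 and 9465 at 42 °C alone (-0.51 ± 0.21, adjusted p = 0.017), and within the later header date its value was -0.52 with an adjusted p of 0.085. GCN3, a subunit of the guanine exchange factor eIF2B, stood at 3406 and 4265 against 662, 686 and 640 (2.53 ± 0.18, adjusted p = 2.5e-38). DED1, an RNA helicase for scanning, had 7554 and 7412 with CHX against 7018, 5575 and 9378 at 42 °C alone, and 6990 to 7765 in controls (0.03 ± 0.19, adjusted p = 0.88). The groups overlapped on the S. pombe scale, whereas with TMM scaling DED1 was lower with CHX (-0.95). Of 14 translation elongation and termination factors 9 were higher (median 0.99), beside 78.8% of all mRNAs. Of 15 purine synthesis mRNAs 11 were higher (median 0.69). With TMM scaling 2 and 4 of these lists were higher and 5 and 7 lower. TEF1 and TEF2, of the elongation list, changed by -1.55 and -1.30 with heat alone. With CHX neither was called (0.28 and 0.27, edgeR adjusted p = 0.21 and 0.23).

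**Figure D3:**
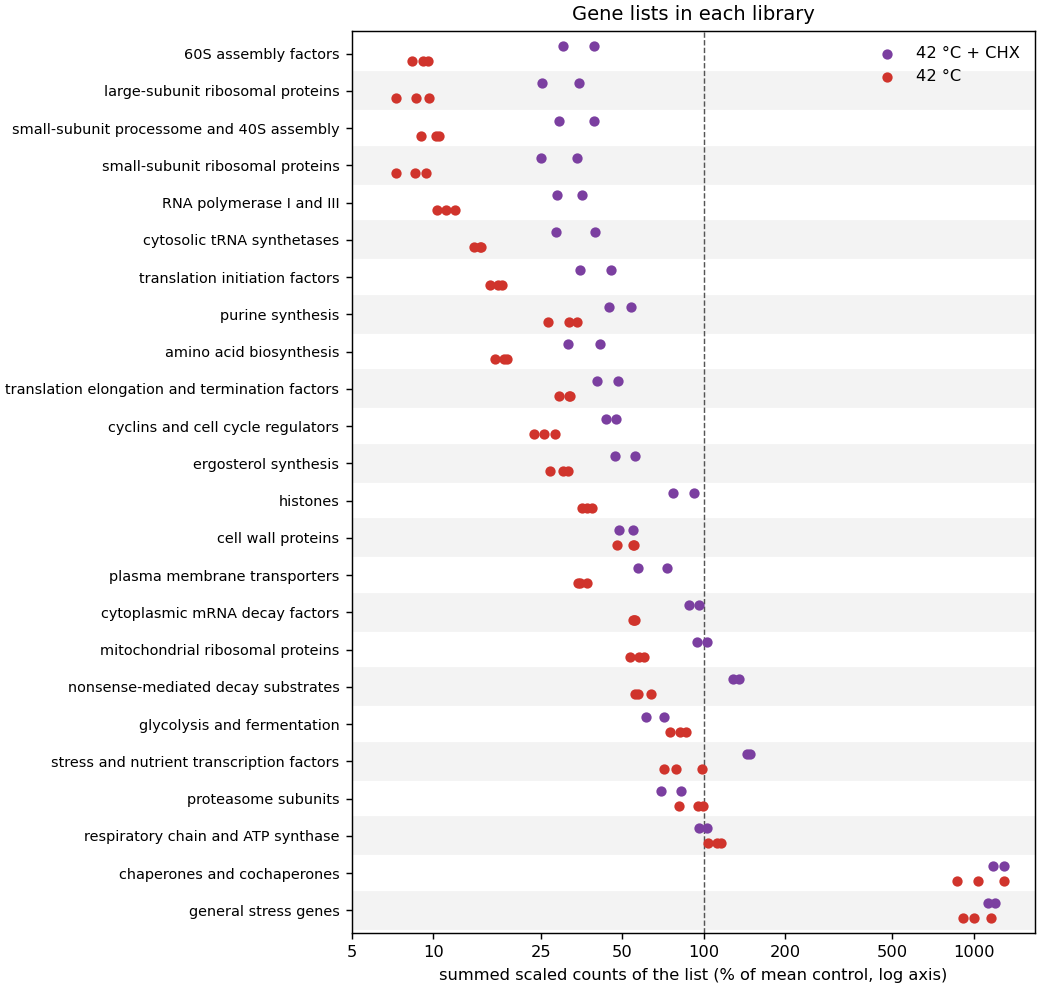
Summed scaled counts of each gene list in each library as a percentage of the control mean (log axis), with the 2 CHX libraries above the 3 libraries at 42 °C in each row and lists ordered by their median change with heat. Cytosolic ribosomal protein and ribosome assembly lists lie at 25.0 to 39.2% with CHX against 7.25 to 10.5% without. Proteasome, glycolysis and respiratory chain lists lie at similar or lower levels with CHX.

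Histone and cell cycle mRNAs, which turn over with the cell cycle, were called higher about as often as all mRNAs. Of 10 histone mRNAs 8 were higher with CHX, a share near the 78.8% of all mRNAs, and 3 were higher and 4 lower with TMM scaling. Their sum was 76.8 and 91.9% of control in J and O, against 38.5, 37.0 and 35.6% in E, F and I. HHF1, a histone H4 gene, had 45153 and 53444 scaled counts, against 12072, 11088 and 13419, which also put CHX above its controls at 30226 to 42934 (2.02 ± 0.20, adjusted p = 6.1e-21). HHT2, which encodes histone H3, had 29655 and 36799 against 29342, 26529 and 23999 and was not called (0.32 ± 0.20, adjusted p = 0.13), with a value of -0.67 called lower under TMM scaling. Cyclins and cell cycle regulators were higher for 18 of 22, among them the B-type cyclin CLB4 with 2939 and 2971 against 454, 458 and 626 (2.53 ± 0.18, adjusted p = 6.6e-38). Here too the share was near 78.8%, and the median of the list was 0.87. With TMM scaling 5 were higher and 9 lower, and the median was -0.11.

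The largest increases with CHX were not confined to mRNAs that heat depletes. By the rule of 12 largest log2 fold changes among mRNAs with a mean of at least 200 scaled counts, the genes were FDH1, YBL029W, ANB1, YMR279C, ALD5, MAM1, YOL014W, DSF1, NNF1, SPS2, FUR4 and HMS1, with values of 3.37 to 4.46 (2.35 to 3.89 against I alone). ALD5, a mitochondrial aldehyde dehydrogenase, had 8703 and 13164 scaled counts in J and O, against 962, 724 and 1192 in E, F and I and 16237 to 17480 in controls (3.51 ± 0.20, adjusted p = 8.9e-54). NNF1, a kinetochore protein of the MIND complex, had 993 and 984 against 102, 80.7 and 98.0, and its controls were at 891 to 1100. FUR4, the uracil permease, had 2051 and 2667 against 187, 185 and 312. All 3 were depleted by heat alone, and with CHX NNF1 and FUR4 were near or above their control counts while ALD5 was at 64.1% of its own. FDH1, a formate dehydrogenase, was of the other kind, with 1449 and 1633 scaled counts with CHX, against 30.0, 23.1 and 158 at 42 °C alone and only 5.82 to 8.52 in controls (4.46 ± 0.27, adjusted p = 8.1e-49). Against library I alone its log2 fold change was 3.29. The transcription factor HAP4, which activates respiratory genes, was lowered by heat alone (-0.72) and stood above its controls with CHX, with 11088 and 15875 against 1326, 1116 and 1711, and controls at 2174 to 2379 (3.28 ± 0.20, adjusted p = 5e-51).

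Heat-depleted mRNAs that CHX did not raise numbered 229 of the 2640. The 10 most depleted of those with at least 200 scaled counts in controls were YBL039C-A, AQR1, NSR1, ECM1, EXG1, PCL1, HXT1, MSB2, SIM1 and YOL019W. NSR1, the yeast nucleolin, had 965 and 1317 scaled counts in J and O, against 1396, 1157 and 707 in E, F and I and 12600 to 13357 in controls (0.07 ± 0.19, adjusted p = 0.74). Both heated groups thus held a small part of its control level. AQR1, a plasma membrane exporter of the major facilitator family, had 166 and 230 with CHX against 179, 172 and 135 (0.28 ± 0.20, adjusted p = 0.18). The low-affinity glucose transporter HXT1 had 1512 and 1762 against 1224, 1223 and 1648 (0.26 ± 0.20, adjusted p = 0.21), and the G1 cyclin PCL1 had 625 and 505 against 450, 443 and 465 (0.32 ± 0.18, adjusted p = 0.098). EXG1, a cell wall glucanase, had 1858 and 2113 with CHX against 3941, 5366 and 1739 at 42 °C alone, so its decrease (-0.89 ± 0.21, adjusted p = 4e-05) rested on E and F, and against I it was 0.19 (adjusted p = 0.55). NSR1 and ECM1 were called higher against I alone, at 0.69 and 0.80. MSB2, a signalling mucin, and SIM1, a cell wall protein of the SUN family, had values of -0.37 and 0.23 (adjusted p = 0.063 and 0.23). In the fixed cell wall list 11 of 22 were higher and 4 lower, beside 78.8% and 2.88% of all mRNAs, with a median of 0.35, which was 0.17 without I and -0.62 under TMM scaling.

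**Figure D4:**
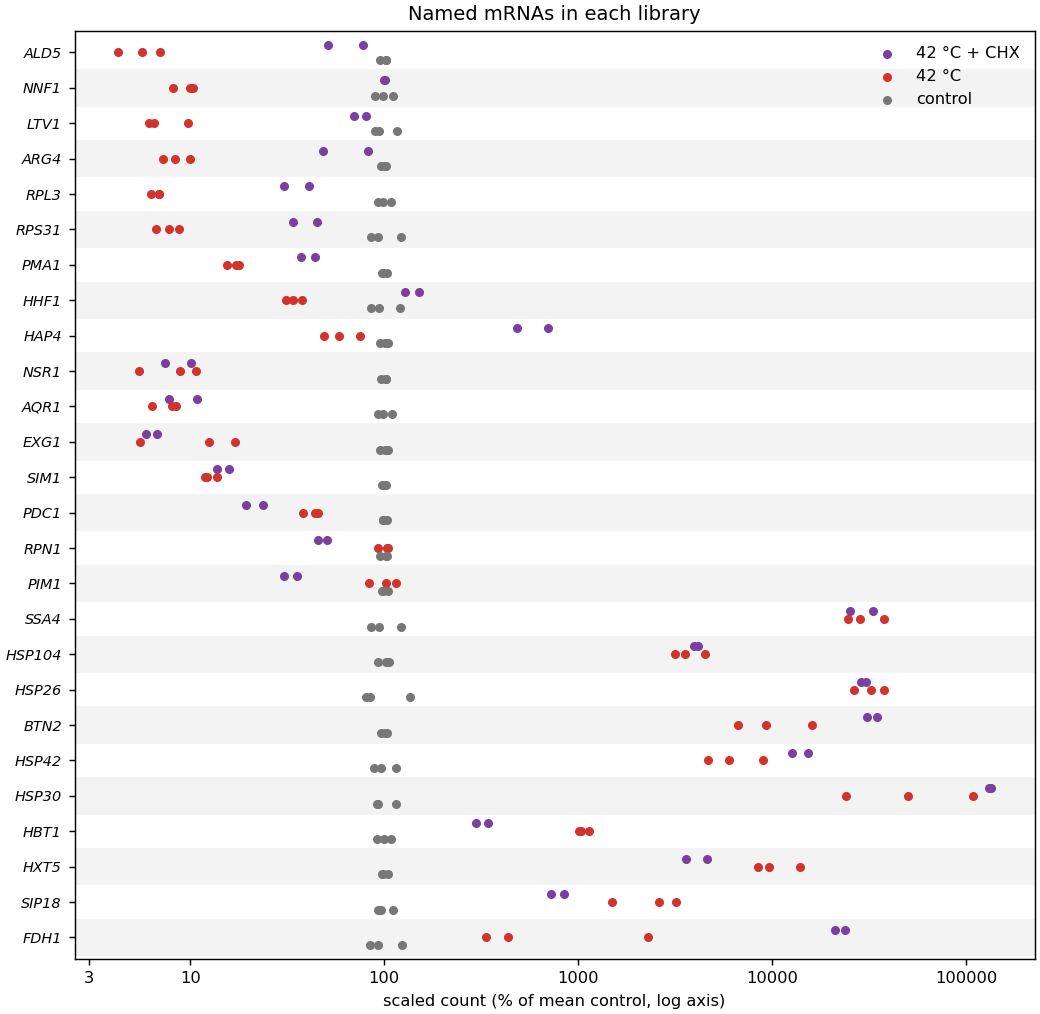
Scaled counts of 26 named mRNAs as a percentage of their control mean (log axis) in each library, with CHX libraries above 42 °C libraries and controls in each row. ALD5, NNF1 and LTV1 return toward 100% with CHX, NSR1, AQR1 and SIM1 stay with the 42 °C libraries, and HBT1, HXT5 and SIP18 lie below them.

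An annotated length was at hand for 211 of the 229 mRNAs not raised and 2379 of the 2411 raised. The 211 had a longer transcript, with a median of 1746 nt and quartiles of 984 and 2957 nt, than the 2379, with a median of 1385 nt and quartiles of 905 and 2049 nt. With the 6023 mRNAs of known length split into 5 equal classes of annotated length, the median log2 fold change with CHX was 1.08, 1.18, 1.11, 1.00 and 0.68 from short to long, while that at 42 °C against control was -0.66, -0.88, -0.81, -0.84 and -0.78. In 5 classes of control level per kilobase, medians with CHX went from 1.20 in the lowest to 0.82 in the highest and those with heat alone from 0.09 to -1.52. These splits carry no test, and length and level were not separated from each other.

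Chaperone mRNAs, the main targets of the heat shock factor, were for the most part not called between heat shock with and without CHX. Of 30 chaperone and cochaperone mRNAs, 6 were higher with CHX and the other 24 not called, with a median of 0.18. Over all mRNAs 78.8% were higher and 18.3% not called. Of the 30, 27 were heat-raised, and of all heat-raised mRNAs 59.6% were higher and 31.6% not called, with a median of 0.68. For mRNAs above 3 with heat alone, the medians over I were 0.24 in J and 0.13 in O, so small changes were not particular to chaperones. TMM scaling gave 4 chaperone mRNAs higher and 24 lower. SSA4, a heat-inducible Hsp70, had 1111495 and 850318 scaled counts in J and O, against 951661, 824701 and 1270046 in E, F and I and 2859 to 4089 in controls. HSP104, a disaggregase, had 845169 and 807206 against 725083, 642586 and 918325, and the small heat shock protein HSP26 had 371375 and 348815 against 390769, 320277 and 458516. In SSA4, HSP104 and HSP26 the groups overlapped, and the log2 fold changes of -0.05, 0.12 and -0.11 were not called (adjusted p = 0.83, 0.62 and 0.62). HSP82, SSA1, SSA2 and HSC82, also among the 10 mRNAs with the most scaled counts, had values of 0.08, -0.14, -0.10 and -0.12.

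The chaperone mRNAs that CHX did raise included BTN2, a sorting factor for misfolded proteins, with 715018 and 632858 scaled counts against 192532, 137089 and 330460 (1.61 ± 0.21, adjusted p = 4.1e-13). The small heat shock protein HSP42 had 546696 and 451925 against 212868, 165407 and 319686 (1.10 ± 0.21, adjusted p = 5e-07), and APJ1, an Hsp40 of the nucleus, had 91125 and 95346 against 19948, 13933 and 32224 (2.08 ± 0.20, adjusted p = 4.1e-22). HSP30, a plasma membrane protein induced by heat and outside the chaperone list, had 363194 and 353330 against 136056, 65152 and 294189 (1.12 ± 0.22, adjusted p = 5.9e-07). CHX was above every 42 °C library for these 4, and I was the highest of the 42 °C libraries in each. Against I alone the values were 1.03 for BTN2, 0.64 for HSP42 (adjusted p = 0.051), 1.53 for APJ1 and 0.28 for HSP30 (adjusted p = 0.39), so the calls for HSP42 and HSP30 were lost.

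Lower calls with CHX fell mostly outside the heat-depleted mRNAs. Of the 182, 60 were heat-raised, 15 heat-depleted and 107 neither, and the 60 made up 8.82% of the heat-raised mRNAs, where 2.88% of all were lower. The heat classes and the lower calls both rest on the 42 °C libraries, so these counts describe and do not test a relation. The 12 lowest by the rule were YMR175W-A, HBT1, SIP18, PYC1, ECM29, PIM1, SIL1, PAI3, HXT5, PUT3, TSA2 and ATG1, from -1.75 to -1.34. HBT1, a protein of the mating projection, had 3304 and 3801 scaled counts in J and O, against 11374, 11221 and 12653 in E, F and I and 1017 to 1199 in controls (-1.73 ± 0.21, adjusted p = 2.2e-15). HXT5, a hexose transporter of slow-growing cells, had 15457 and 11941 against 32203, 28257 and 46275, with 323 to 350 in controls (-1.38 ± 0.21, adjusted p = 3.1e-10). These were induced by heat in the presence of CHX as well, to a lower level. SIP18, a hydrophilin for desiccation, had 461 and 396 against 1426, 1737 and 813 (-1.63 ± 0.20, adjusted p = 8.1e-15), and -0.92 against I alone. PIM1, the Lon protease of mitochondria, had 2668 and 3088 with CHX against 8906, 10066 and 7276 at 42 °C alone and 8508 to 9114 in controls (-1.60 ± 0.20, adjusted p = 3.7e-14), and heat alone gave 0.00. PYC1, pyruvate carboxylase, was likewise at 3341 and 3884 against 11157, 15233 and 7068, and its value against I alone was -0.97 in place of -1.63. Against I alone YMR175W-A, PAI3 and TSA2 were at -0.93, -0.74 and -0.71.

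Few proteasome, glycolysis and respiratory chain mRNAs were higher with CHX, where 78.8% of all mRNAs were higher and 2.88% lower. Of 33 proteasome subunits 2 were higher and 12 lower (median -0.29), of 16 glycolysis and fermentation mRNAs 5 were lower and the other 11 not called (median -0.35), and of 35 respiratory chain and ATP synthase mRNAs 3 were higher and 11 lower (median -0.19). With TMM scaling 33, 16 and 33 were lower. Without J the proteasome and glycolysis medians were -0.18 and -0.17, without O the glycolysis median was -0.54, and without E the respiratory chain median was -0.10. Libraries H to S alone gave -0.12 for the proteasome. The summed glycolysis level was 61.2 and 71.7% of control in J and O, against 81.9, 74.9 and 86.3% in E, F and I. RPN1, a subunit of the proteasome base, had 9652 and 10764 scaled counts, against 21705, 22104 and 19643, while its controls were at 20156 to 21712 (-1.05 ± 0.21, adjusted p = 1.1e-06). PDC1, pyruvate decarboxylase, had 73075 and 89248 against 172472, 166735 and 144511 and 371801 to 387738 in controls (-0.99 ± 0.22, adjusted p = 1.6e-05). TDH3, a glyceraldehyde-3-phosphate dehydrogenase and one of the most abundant mRNAs, had 641413 and 683362 against 677774, 605972 and 765834 and was not called (-0.04 ± 0.22, adjusted p = 0.85, and -1.02 and called lower with TMM scaling). The general stress genes were split, with 12 of 38 higher, 8 lower and a median of 0.04, and with TMM scaling 1 was higher and 30 lower, with a median of -0.93.

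Regulators and transporters varied widely within their lists. Shares called higher in these lists were near the 78.8% of all mRNAs. Among 24 stress and nutrient transcription factors 17 were higher and 1 lower, and with TMM scaling 7 were higher and 10 lower. Values ran from HAP4 at 3.28 to the oxidative stress factor YAP1 at -0.69 (adjusted p = 0.00057), which had 3272 and 3874 scaled counts against 6073, 6398 and 4761 and was not called against I alone (-0.41). RPN4, the activator of proteasome genes, had 44525 and 40473 against 20547, 16974 and 26380 (1.00 ± 0.20, adjusted p = 1.4e-06, and 0.02 with TMM scaling), beside the 2 of 33 proteasome mRNAs that were higher. Of 32 plasma membrane transporters 23 were higher and 4 lower, and with TMM scaling 12 were higher and 12 lower. PMA1, the proton pump, had 95664 and 112874 against 46047, 44301 and 40114 with 251105 to 268027 in controls (1.26 ± 0.21, adjusted p = 6.3e-09). Nonsense-mediated decay, which destroys mRNAs on which ribosomes stop early, needs translation. Of 10 known natural substrates 9 were higher with CHX beside 78.8% of all mRNAs (median 1.23 beside 1.02), and with TMM scaling 5 were higher and 2 lower (median 0.25). Their sum was 129 and 135% of control in J and O, against 57.1, 55.8 and 63.9% in E, F and I. EST2, the catalytic subunit of telomerase, had 1542 and 1880 against 279, 270 and 279 (2.63 ± 0.19, adjusted p = 5.9e-39). Mitochondrial ribosomal proteins were higher for 60 of 73, a share near that of all mRNAs, with a median of 0.74, and with TMM scaling 11 were higher and 35 lower, with a median of -0.24.

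Without Xrn1, more mRNAs were called higher than lower at 42 °C, against the wild type and on the S. pombe scale. Total mRNA was 72.4 and 88.6% of control in deletion libraries N and S. In E, F and I it was 76, 70.7 and 82.8%, so the groups overlapped. Median log2 changes against control were -0.83 and -0.50 in N and S, against -0.90, -0.84 and -0.98. Unheated deletion libraries M and R had 0.13 and 0.29, against -0.09, 0.02 and 0.07 in A, B and H. Whether the deletion changed the response to heat was not tested. The values with CHX and without Xrn1 share the wild-type 42 °C libraries, so they are given side by side only. XRN1 itself had 54.5 and 61.2 scaled counts in the deletion at 42 °C, against 7218, 8834 and 6462 in E, F and I. In that strain 2609 mRNAs were higher (41.3%) and 794 lower (12.6%) than in the wild type at 42 °C, with a median of 0.29, and without Ski2 the counts were 115 (1.82%) and 23 (0.364%). No other scaling was run for the deletion strains. TMM factors relative to the S. pombe reads, as log2, were -0.47 and -0.11 in N and S. They were -0.64, -0.60 and -0.63 in E, F and I, so the sign of a small positive value without Xrn1 depends on the spike-in. For large-subunit ribosomal proteins the median was 1.74 with CHX and 1.29 without Xrn1, and for 60S assembly 1.81 and 1.04. RPL3 had 2.41 with CHX and 2.40 without Xrn1, LTV1 3.33 and 3.35, and HAP4 3.28 and 3.76. For other lists the values lay further apart. Histones had medians of 1.09 with CHX and -0.22 without Xrn1, tRNA synthetases 1.24 and 0.15, and cyclins and cell cycle regulators 0.87 and -0.16. HHF1 had 2.02 and 0.07, and WRS1, the tryptophan enzyme among the synthetases, 2.07 and 0.54. Of the 229 heat-depleted mRNAs that CHX did not raise, 40 were higher and 85 lower without Xrn1, and NSR1 was at -1.66 (adjusted p = 3.3e-14). Whether the values with CHX and without Xrn1 differ was not tested.

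**Figure D5:**
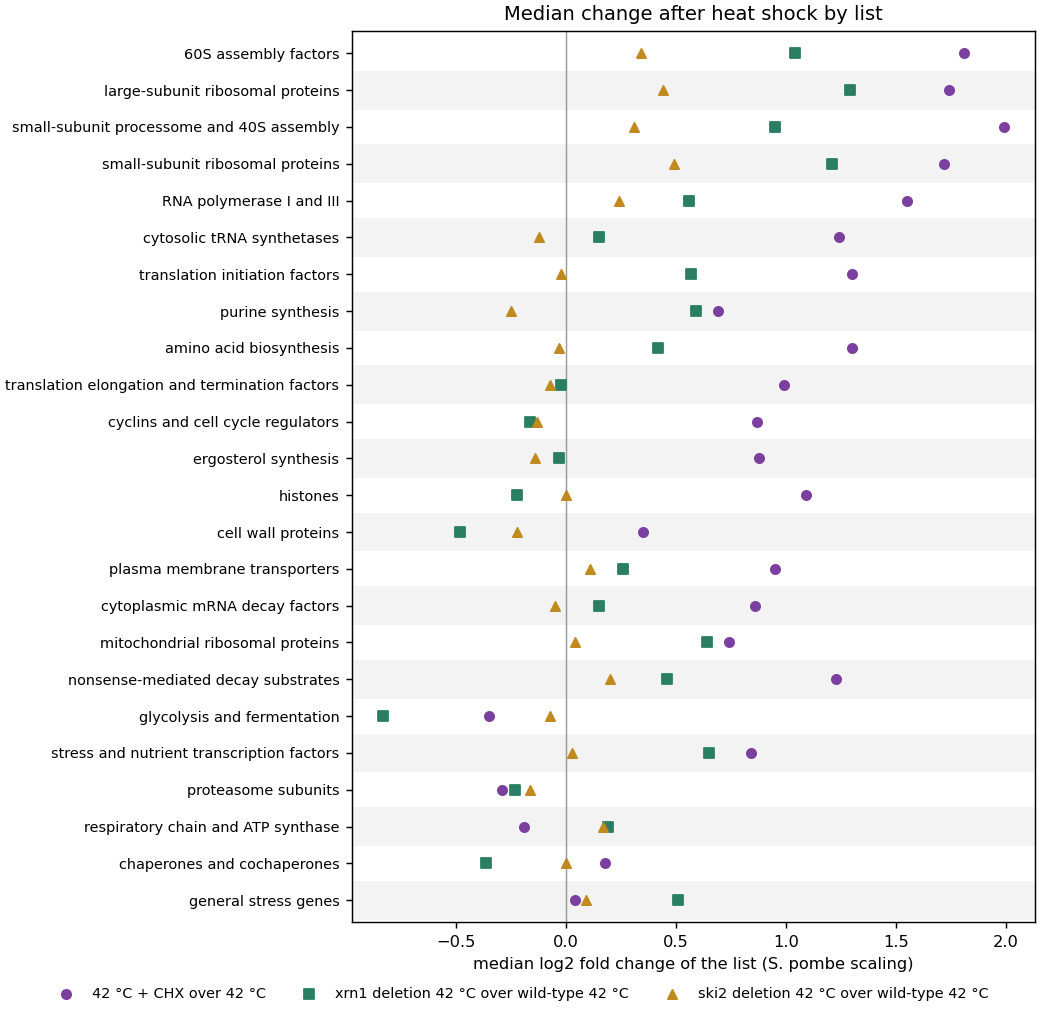
Median log2 fold change of each gene list with CHX (circles), without Xrn1 (squares) and without Ski2 (triangles), each against wild-type cells at 42 °C and scaled to S. pombe reads; the 3 share their reference libraries. Cytosolic ribosomal protein and ribosome assembly lists lie above 0.9 with CHX and without Xrn1. Histones, synthetases and cell cycle lists lie above 0.8 with CHX and between -0.22 and 0.15 without Xrn1.

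Non-coding transcripts were also higher with CHX. Cryptic and stable unannotated transcripts (CUTs and SUTs) are short-lived or low-level products of pervasive transcription. Reads on SUTs were 313 and 295% of the control mean in J and O, against 93.5, 87.5 and 126% in E, F and I, and reads on CUTs were 281 and 226% against 105, 89.9 and 129%. In a fit over 1613 of them by edgeR, 1370 were higher with CHX (84.9%) and 10 lower (0.62%), with a median log2 fold change of 1.57 beside 1.02 for mRNAs, a difference that was not tested. With TMM scaling 660 of 1603 were higher and 83 lower, and the median was 0.60, so the direction of the typical CUT or SUT held on both scales. Against the control, 1000 were higher with CHX (62%) and 147 lower (9.11%), where heat alone gave 355 higher (22%) and 649 lower (40.2%). Heat alone gave 1097 mRNAs higher (17.4%) and 4000 lower (63.3%).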

How the data were processed

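Reads were aligned with Novoalign to a joint genome of intronless Saccharomyces cerevisiae and S. pombe and counted with pyReadCounters, per the file headers and the study's methods. The authors deposited, for each library, read counts per annotated transcript on each strand and RPKM values made from them. The deposited counts on the strand opposite to the transcript were used, since the kit is directional and reads the first strand, and the deposited RPKM values served no test. The headers name a random placement of reads that fit several places. Each library was scaled to its summed S. pombe counts. All 18 RNA-seq libraries were fitted together in edgeR 4.0.16 (R 4.3.3) with the quasi-likelihood test after filterByExpr (minimum count 10, minimum total 15), Benjamini-Hochberg adjustment over all mRNAs and a threshold of 0.05. Alternatives were TMM and DESeq2 1.42.0 size factors, total yeast reads, DESeq2's Wald test, no filter, a threshold of 0.01, fewer libraries in the fit and each library left out. The fit was also run on simulated counts in which few mRNAs changed and the S. pombe scale was exact. That run does not bear on how far the calls depend on the spike-in.

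Genes were named by a rule: the 12 largest and 12 smallest called changes with a mean of at least 200 scaled counts and no overlap between groups, the 2 highest, the largest and the smallest of each gene list, the 10 most heat-depleted mRNAs not higher with CHX, the 10 most heat-raised, the 10 highest, and the strain's marker genes. The comparison, the rule and the gene lists were chosen with earlier results of these data known. The study describes biological duplicates. Libraries of the RNA crosslinking assay were not used here, and those of glucose withdrawal entered the fit only.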

Additional observations from a re-analysis of the deposited data

How the results depend on the processing

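The count of mRNAs higher with CHX was 2130 with TMM factors and 2295 with DESeq2 size factors in place of 4983, and the count lower was 2049, 1905, 776 with total yeast reads and 114 with libraries H to S alone in place of 182. Heat-depleted mRNAs called higher numbered 779, 851 and 1541 with TMM, DESeq2 size factors and total reads in place of 2411, and heat-raised mRNAs called lower 682, 620 and 233 in place of 60, with the heat classes rescaled as well. With the classes kept and TMM for the CHX contrast alone, the counts were 1326 and 321. The median log2 change over libraries was -0.11 with DESeq2 size factors, which centre it by construction. CUTs and SUTs with TMM gave 660 higher and 83 lower. Leaving out 1 library at a time gave 4469 to 4922 higher and 109 to 200 lower, with 109 without J. Without J, O, or E and F, the lone library was assumed to vary like the others. DESeq2's Wald test gave 4937 higher and 181 lower. List medians turned negative with TMM and DESeq2 size factors for mitochondrial ribosomal proteins (-0.24 and -0.20), chaperones (-0.80 and -0.75), general stress genes (-0.93 and -0.89), purine synthesis (-0.29 and -0.25), ergosterol synthesis (-0.11 and -0.06), cell cycle regulators (-0.11 and -0.07), decay factors (-0.13 and -0.08), transcription factors (-0.14 and -0.10), cell wall proteins (-0.62 and -0.58) and transporters (-0.04 and -0.00). Total reads gave -0.30, -0.43 and -0.14 for chaperones, general stress genes and cell wall proteins, H to S -0.02 and -0.01 for the first 2 of these, and with 1 library left out general stress genes ranged from -0.03 without F to 0.15 without I. Named mRNAs that turned negative with TMM and DESeq2 size factors were RPL15B (-0.39 and -0.35), ALB1 (-0.50 and -0.45), DED1 (-0.95 and -0.90), HSP104 (-0.86 and -0.81), HHT2 (-0.67 and -0.62), YBL039C-A (-0.57 and -0.53), AQR1 (-0.70 and -0.66), NSR1 (-0.92 and -0.87), ECM1 (-0.58 and -0.53), PCL1 (-0.65 and -0.60), HXT1 (-0.72 and -0.68), SIM1 (-0.75 and -0.70), YOL019W (-0.74 and -0.70) and HSP82 (-0.90 and -0.85). TEF1, TEF2 and RCL1 were also negative with TMM (-0.70, -0.71 and -0.22). With total reads DED1, HSP104 and HSP82 were at -0.43, -0.35 and -0.39, and EXG1 was at 0.19 with H to S. No paired analysis was possible because the labels give library letters and no replicate numbers shared between groups. The header date was not a term of the fit. Replicate numbers of 2 and 3 limit the precision of every level, and what unheated cells do with CHX was not analysed here.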

Other observations

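Of 765 mRNAs under 200 scaled counts in each control and each 42 °C library, 591 were called higher with CHX, a share no larger than the 78.8% of all mRNAs, with a median log2 fold change of 1.60. The class was cut on the 42 °C libraries of the same contrast, so the values are a description. Of these mRNAs 18 were over 500 in both CHX libraries. SPS2, a protein of the spore wall, had 745 and 671 scaled counts in J and O, against 40.8, 23.1 and 139 in E, F and I and 2.33 to 8.52 in controls. MAM1, the monopolin subunit of meiosis I, had 718 and 703 with CHX, against 40.8, 24.8 and 124 at 42 °C alone and 18.6 to 28.8 in controls. Both had more reads in I than in E and F, and against I alone their log2 fold changes were 2.35 and 2.52 in place of 3.39 and 3.50. ANB1, the form of eIF5A made without oxygen, had 932 and 974 with CHX, against 84.2, 59.4 and 83.4 at 42 °C alone and 113 to 138 in controls.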
